A study of Homo sapiens with 21 samples.

Results

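Keratins are the proteins of the intermediate filaments of epithelial cells, and the messenger RNA of 10 keratin genes was followed here in 17 cancer cell lines. The 10 genes were taken as a list of names, chosen with earlier results of these data known, and each was found once among the 53515 Ensembl genes of the count tables. KRT5, KRT6A, KRT7, KRT8, KRT80 and KRT81 encode type II keratins, and KRT15, KRT17, KRT18 and KRT19 encode type I keratins. A further 45 protein coding keratin genes had a row and are used for comparison.

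RNA sequencing covered 7 parental carcinoma cell lines and 10 cell lines derived from them by prolonged culture with a drug, and the question was which genes change as resistance is acquired. HepG2, from liver, gave HepG2S1 and HepG2S3, which resist sorafenib, and PancVB, from pancreas, gave PancB1Q and PancB1V, which resist 5-fluorouracil. The lung lines HCC4006P1, HCC4006P2 and HCC827P gave the erlotinib-resistant HCC4006ER, the gefitinib-resistant HCC4006GR and the gefitinib-resistant HCC827GR. The ovarian line UWB1.289 gave the olaparib-resistant U10 and U100, and the ovarian line IGROV-1 gave the cisplatin-resistant IGROV-1/CDDP. No allele or transgene is given for any line, the labels do not state whether a derived line is 1 clone, and no untreated line carried through the same months of culture was analysed here, so drug exposure and time in culture cannot be told apart. HepG2, HepG2S3, HCC4006P1 and HCC4006ER have 2 libraries each and the other lines have 1. Nothing states that replicate libraries came from separate cultures, so p-values measure the spread between these libraries, which may be technical. In bulk RNA, fewer cells with a transcript and less transcript per cell cannot be told apart.

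The 21 libraries held 9851195 to 36639473 counts on genes, and levels are CPM, that is counts scaled to a common library total. A count of 3, taken as the floor of detection, corresponds to 0.0819 CPM in the deepest and 0.305 CPM in the shallowest library, and intervals are 95% Wilson intervals that cover counting error only. HCC4006P1 replicate 1 holds 0 counts for genes past a point on chromosome 7, which raises the CPM of its other genes by 22.8%, and 0 of the 10 keratin genes lie in the missing stretch. HepG2S1 and HepG2S3 stand apart from their label as liver lines. The summed level of 7 liver markers was 29660 CPM in HepG2, 6.19 CPM in HepG2S1, where ALB, AFP, APOA1 and TTR were at 0, and 33.2 CPM in HepG2S3, against 2.94 to 21.5 CPM in lines of other origin. Over 15394 genes, log2(CPM + 1) correlated at r = 0.734 between HepG2S1 and HepG2 and at 0.740 between HepG2S3 and HepG2, below the 0.830 and 0.822 of the same lines with PancVB, and HepG2S1 and HepG2S3 correlated with each other at 0.978. The other 8 resistant lines correlated with their own parental line at 0.875 to 0.971, above any other parental line. HCC4006P1 and HCC4006ER lacked the lung markers, with 0.450 and 0.535 CPM over NKX2-1, SFTPB, NAPSA and SFTA3 against 24.6 to 296 CPM in the other 4 lung lines. The ovarian lines held 417 to 665 CPM over PAX8, WT1 and MUC16, and HCC827P held 642 CPM, of which MUC16 made up 618 CPM. These markers differed, since PAX8 was at 357 to 664 CPM in the ovarian lines and at most 36.0 CPM in the others. WT1 was at most 0.4875 CPM in the ovarian lines. The pancreatic lines held 97.9 to 213 CPM over SOX9, ONECUT2 and PDX1, within the 6.62 to 302 CPM of the others. Of the blood cell markers, PTPRC and CD3E stayed at or below 0.665 CPM, while CD68 ranged from 4.40 to 318 CPM. The endothelial marker CDH5 reached 81.4 CPM, in U10. The fibroblast markers DCN, LUM and PDGFRB summed to 536 CPM in HepG2S1, 388 CPM in HepG2S3 and 163 CPM in HCC4006ER, and to 0.140 to 8.13 CPM in the other 14 lines. The part of these marker differences in the keratin changes was not tested, and counts over all lines are therefore also given without HepG2 and its derived lines.

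A keratin filament is built from pairs of a type I and a type II chain, and a chain without a partner is generally unstable, so that epithelia express the types in matched sets. KRT8 with KRT18 is the pair of simple, single-layered epithelia and the first to appear in the embryo, and KRT19 and KRT7 join it in ducts and glands. KRT5 with KRT15 belongs to basal cells of layered epithelia, KRT6A with KRT17 to epithelium under stress or repair, and KRT81 to hair. Loss of simple-epithelial keratins, with gain of the intermediate filament vimentin, is a textbook trait of cells that leave the epithelial state. Hepatocytes contain KRT8 and KRT18, whereas KRT7 and KRT19 mark the bile ducts.

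In the GENCODE annotation of GRCh37, KRT8 and KRT18 lie side by side on chromosome 12, at 53290971 to 53343738 on the minus strand and 53342655 to 53346690 on the plus strand, with MANE Select starts 44042 bases apart. KRT18 is the exception among the type I members, since KRT15, KRT17 and KRT19 lie on chromosome 17 and the type II members on chromosome 12. The spans of KRT8 and KRT18 overlap by 1084 bases, and since the strand setting of the counting is not given in the sources used here, reads of the overlap cannot be assigned with certainty. KRT81 lies wholly within the span of KRT86 on the opposite strand, and KRT7 overlaps KRT86 and KRT87P, which reached 3.59 and 10.2 CPM at most. Counts of KRT6A, KRT17 and KRT81 are uncertain where related genes (KRT6B and KRT6C, KRT16, KRT86 and KRT83) share reads, and KRT8 and KRT18 have processed pseudogenes.

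KRT8, KRT18, KRT19, KRT80 and KRT7 were the abundant members. KRT8 was at 10 CPM or more in 17 of 17 lines, with a median of 878 CPM, and ranged from 29.4 CPM in IGROV-1/CDDP to 2883 CPM in HCC4006P1. KRT18 was likewise at 10 CPM or more in 17 of 17 lines, from 97.3 CPM in IGROV-1/CDDP to 1605 CPM in HCC4006P1, with a median of 589 CPM. Means of HCC4006P1 include replicate 1, whose CPM is raised by the missing stretch. For KRT18, UWB1.289 at 1545 CPM could not be told apart from HCC4006P1 and lay above its replicate 2, at 1490 CPM. KRT19 passed 10 CPM in 16 lines and had its lowest level, 2.11 CPM, in HCC4006ER and its highest, 1723 CPM, in HCC4006P1, the parental line of HCC4006ER. KRT7 passed 10 CPM in 15 lines, with a median of 1674 CPM, and KRT80 in 16 lines, with a median of 174 CPM. The remaining members were restricted: KRT15, KRT17 and KRT81 passed 10 CPM in 4 lines each, KRT6A in 2 and KRT5 in 0. In the order of lines from lowest to highest, neighbouring lines could not be told apart by library range or counting interval in 4 of 16 steps for KRT7 and for KRT19, 5 for KRT80, 6 for KRT8, 7 for KRT18, 11 for KRT81, 12 for KRT6A and KRT17, 13 for KRT15 and 16 for KRT5.

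**Figure D1:**
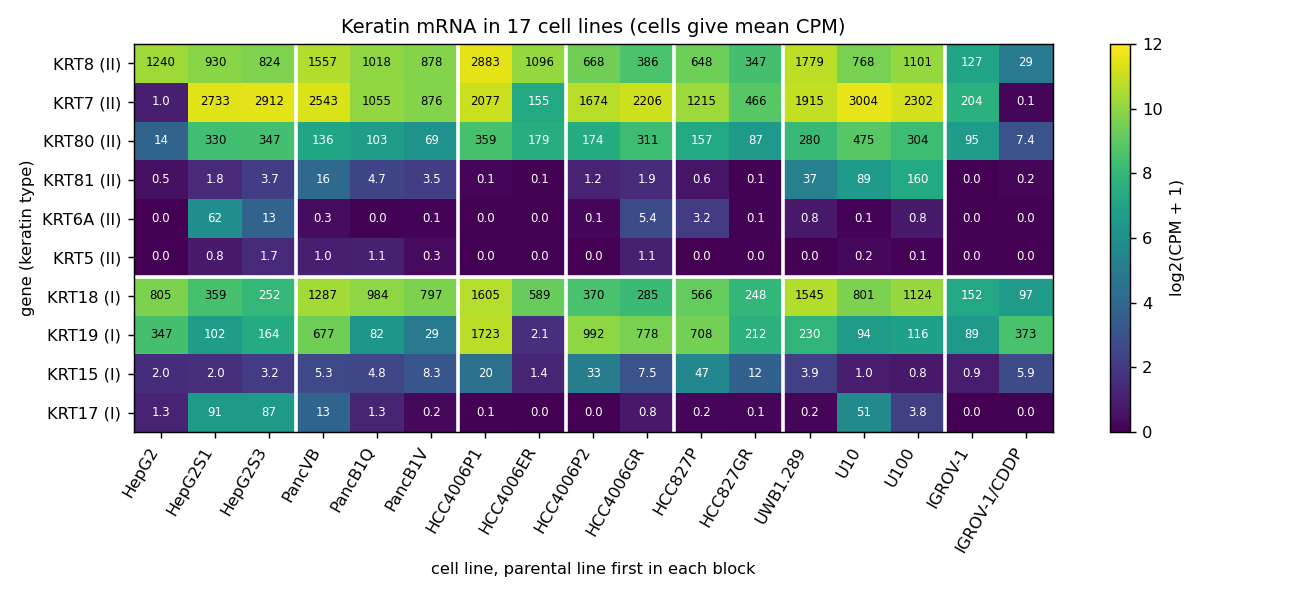
Heat map of the mean level of the 10 keratin genes (rows, type II above type I) in 17 cell lines (columns, each parental line followed by its resistant lines), coloured by log2(CPM + 1) and with the mean CPM printed in each cell, over 2 libraries for HepG2, HepG2S3, HCC4006P1 and HCC4006ER and 1 for the others. KRT8 and KRT18 stay in the upper range across the rows, whereas KRT7 drops to 1.03 CPM in HepG2 and 0.119 CPM in IGROV-1/CDDP, and KRT19 to 2.11 CPM in HCC4006ER.

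The direction in which the keratins moved depended on the pair. A log2 fold change (log2FC) here is log2(CPM + 1) of the resistant line minus that of its parental line, which understates changes of low genes, and a change past 1 in size was counted for genes with a mean of at least 1 CPM in the pair. In HepG2S1, 4 of 9 such members were higher and 2 lower, where 25.8% of 13908 genes were higher and 18.3% lower. In HepG2S3, 5 of 9 were higher and 2 lower, against 27.5% and 17.4% of all genes. The median change of the members was 0.95 in HepG2S1 and 1.69 in HepG2S3, beside medians over all genes of 0.23 and 0.28, shifts that became -0.11 and -0.01 when totals were scaled by TMM. With TMM 18.8% of genes were higher and 24.4% lower in HepG2S1, and 21.6% and 21.8% in HepG2S3, while the counts of members stayed at 4 and 2 and at 5 and 2. In PancB1Q, 4 of 9 members were lower and 0 higher, against 9.41% of genes lower and 6.14% higher, or 6.77% and 8.87% with TMM, and in PancB1V 4 of 8 were lower and 0 higher, against 7.24% and 8.72%. HCC4006ER had 6 of 6 lower and 0 higher, against 10.9% lower and 17% higher, and its members' median was -2.30 beside 0.05 over all genes. KRT80 passed the cut there at -1.002. With TMM 5 members were lower and 0 higher in HCC4006ER, against 10.7% and 16.1% of genes. The shares and the median over all genes of this pair include the missing stretch. There the 0 counts of HCC4006P1 replicate 1 lower the parental mean, which inflates the share of genes called higher. The edgeR fit without the stretch, at its own threshold, called 24.1% of 12791 genes up and 24.9% down. In HCC827GR, 5 of 7 were lower and 0 higher, against 7.79% and 10.5%. HCC4006GR had 1 of 8 lower and 1 higher, against 7.48% and 7.67% of genes, and the higher one, KRT6A, had 2 counts in HCC4006P2. In U10, 3 of 8 were lower and 2 higher, against 5.01% and 6.36%, and in U100 1 of 8 was lower and 2 higher, against 1.76% and 6.37%. With TMM 2 members were lower and 2 higher in U100, against 2.00% and 5.67% of genes. In IGROV-1/CDDP, 3 of 6 were lower and 2 higher, against 7.19% and 5.50%. Pairs that share a parental line share its libraries, and with 6 to 9 members a single gene moves these shares widely. A member under 1 CPM in 1 line of a pair passes the filter through the other line alone, which fixes its direction. Among the counted changes this holds for KRT6A in HepG2S1, HepG2S3, HCC4006GR and HCC827GR and KRT17 in PancB1V, U10 and U100. It also holds for KRT15 in U10, U100 and IGROV-1/CDDP, KRT81 in HepG2S3 and KRT7 in IGROV-1/CDDP. The shares of all genes contain such genes as well.

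**Figure D2:**
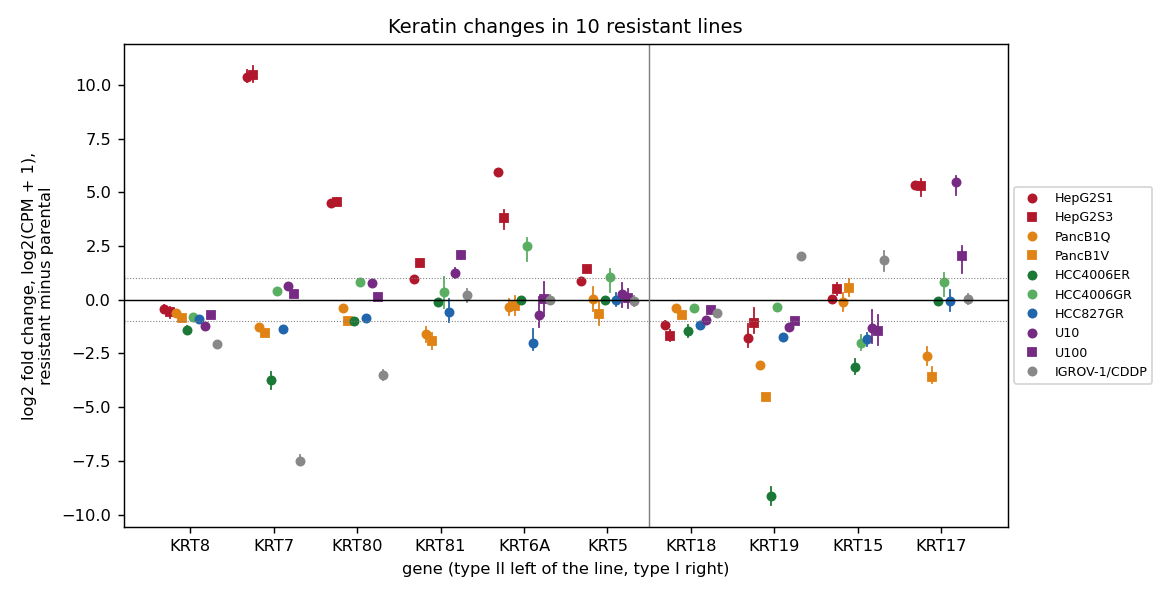
log2 fold change on log2(CPM + 1), resistant minus parental, of each keratin gene in the 10 resistant lines, coloured by parental line, with squares for the second line of a parental line. Vertical lines give the range over pairings of single libraries where a line has 2 and the counting interval elsewhere, and dotted lines mark changes of 1 in size. KRT8 and KRT18 lie below 0 in 10 of 10 lines, while KRT7 spreads from -7.52 to 10.49.

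KRT8 and KRT18, the keratins of simple epithelia, were lower in each of the 10 resistant lines than in the parental line. In the pairs with replicate libraries, those of HepG2S1, HepG2S3 and HCC4006ER, the libraries of the groups did not overlap. The other pairs have 1 library on each side, so that an overlap could not be seen there. KRT8 stood at 1105 and 1375 CPM in the HepG2 libraries, 930 CPM in HepG2S1 and 765 and 883 CPM in HepG2S3. It stood at 1557 CPM in PancVB, 1018 CPM in PancB1Q and 878 CPM in PancB1V. In the lung lines it went from 2995.5 and 2771 CPM in HCC4006P1 to 989 and 1203 CPM in HCC4006ER, from 668 CPM in HCC4006P2 to 386 CPM in HCC4006GR and from 648 CPM in HCC827P to 347 CPM in HCC827GR. The resistant library was the lower each time, at levels that still rank KRT8 among abundant transcripts. UWB1.289 had 1779 CPM, U10 768 CPM and U100 1101 CPM, and KRT8 went from 127 CPM in IGROV-1 to 29.4 CPM in its derived line IGROV-1/CDDP. The ovarian line IGROV-1/CDDP, with the largest drop of KRT8, was thus derived from the parental line with the least of it. The column of the IGROV-1/CDDP counts is headed IGROV-1, and the sample's own label was followed. The direction of every change in that pair rests on this label.

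KRT18, the type I partner of KRT8, stood at 723 and 887 CPM in HepG2, 359 CPM in HepG2S1 and 231 and 274 CPM in HepG2S3. It stood at 1287 CPM in PancVB, 984 CPM in PancB1Q and 797 CPM in PancB1V. In the lung lines it went from 1719 and 1490 CPM in HCC4006P1 to 520 and 659 CPM in HCC4006ER, from 370 CPM to 285 CPM in HCC4006GR and from 566 CPM to 248 CPM in HCC827GR. As for KRT8, no resistant library reached its parental level. UWB1.289 had 1545 CPM, U10 801 CPM and U100 1124 CPM, and the cisplatin pair had 151.5 CPM in IGROV-1 against 97.3 CPM in IGROV-1/CDDP.

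**Figure D3:**
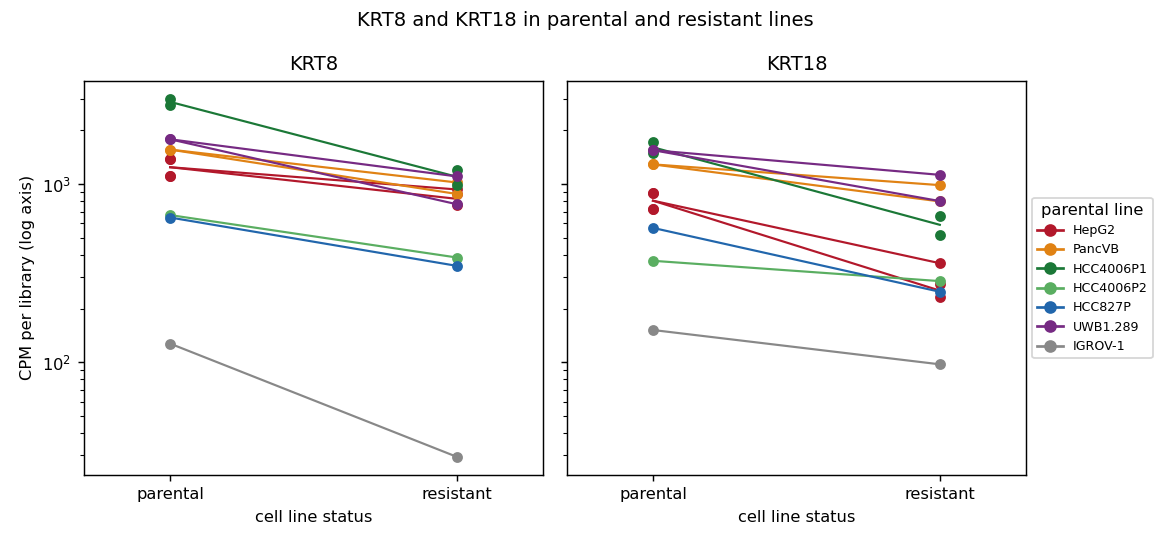
CPM of KRT8 (left) and KRT18 (right) per library on a log axis, with parental lines on the left of each panel, resistant lines on the right, 1 colour per parental line and lines joining the means. All 10 lines slope down in both panels, KRT8 by 0.41 to 2.07 and KRT18 by 0.38 to 1.67 on the log2(CPM + 1) scale.

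With the resistant lines of a parental line averaged, the log2FC of KRT8 was -1.05 ± 0.53 (SD, n = 7 parental lines) and that of KRT18 -0.90 ± 0.44 (SD, n = 7). Of 13163 genes with a mean of at least 1 CPM outside the missing stretch, 126 (0.957%) were lower in all 7 parental backgrounds, and KRT8 and KRT18 were the 2 members among them. HCC4006P1 and HCC4006P2 are stocks of the same cell line by the study's account, and averaged as 1 line they gave -1.04 ± 0.55 and -0.90 ± 0.34 (SD, n = 6). Without HepG2 and its derived lines the means were -1.14 ± 0.52 and -0.81 ± 0.41 (SD, n = 6), and 2.62% of genes were lower in all 6 backgrounds, the same 2 members among them. Taken line by line, 65 genes were lower in all 10 resistant lines. The edgeR quasi-likelihood test over 7 parental and 7 resistant profiles, with the parental line as a block, called 0% of 15500 genes at a Benjamini-Hochberg adjusted p under 0.05, with 728 genes at an unadjusted p under 0.05. In that fit KRT8 had a log2FC of -1.05 (SE 0.20, adjusted p = 0.601) and KRT18 one of -0.92 (SE 0.22, adjusted p = 0.848), while DESeq2, which called 92 genes, gave adjusted p = 0.000571 for KRT8 and 0.0336 for KRT18. The common decrease of these genes therefore stands as a count of lines and a mean, and its call depends on the tool.

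In the pairs with replicate libraries, KRT8 and KRT18 passed the edgeR test. In HCC4006ER against HCC4006P1, fitted without the missing stretch, 6 members passed the filter on low counts and 6 of these 6 fell, where 24.9% of 12791 genes fell and 24.1% rose. KRT18 changed by -1.40 (SE 0.16, adjusted p = 0.000688) and KRT8 by -1.35 (SE 0.16, adjusted p = 0.000825). In HepG2S3 against HepG2, 6 of 10 members rose and 3 fell, against 31.4% and 32.1% of 16929 genes, or 6761 genes up and 4305 down in place of 5308 and 5436 when library totals were used without TMM. KRT5 and KRT6A, at 0 in HepG2, passed the filter through the resistant lines alone, so their rise was fixed by the filter. KRT18 fell by 1.99 (SE 0.17, adjusted p = 0.000482) and KRT8 by 0.90 (SE 0.18, adjusted p = 0.00715) on the log2 scale. In HepG2S1, tested with its single library against HepG2 and with the spread of HepG2 and HepG2S3, 6 of 10 members rose and 3 fell, against 22.3% and 25.0% of 18341 genes. KRT18 fell by 1.52 (SE 0.22, adjusted p = 0.00365) and KRT8 by 0.76 (SE 0.21, adjusted p = 0.0319), the latter with adjusted p = 0.085 without HepG2S3 replicate 1 and 0.0811 without replicate 2. KRT8 in HepG2S3 had adjusted p = 0.0734 without HepG2S3 replicate 1.

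The partners did not always fall by the same amount. The change of KRT8 minus that of KRT18 was 0.75 in HepG2S1 and 1.08 in HepG2S3, where KRT18 was the further lowered, and -1.44 in IGROV-1/CDDP, where KRT8 was. It lay between -0.41 and 0.29 in the other 7 lines. Over the 17 lines log2(CPM + 1) of KRT8 and KRT18 correlated at r = 0.882 (Spearman rho 0.904), at 0.830 without IGROV-1 and IGROV-1/CDDP and at 0.969 over the 7 parental lines, which include IGROV-1. These values describe lines that partly share a parental line.

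KRT19, the small type I keratin of ducts and glands, was lower in 9 of the 10 resistant lines and had the widest range of changes among the type I members. It went from 1939 and 1507 CPM in HCC4006P1 to 2.63 and 1.59 CPM in HCC4006ER, 816-fold lower in the mean, and from 677 CPM in PancVB to 82.0 CPM in PancB1Q and 28.6 CPM in PancB1V. The edgeR log2FC in HCC4006ER was -9.61 (SE 0.25, adjusted p = 5.7e-06), and no other member of that pair came near it. HepG2 had 220.3 and 473 CPM, HepG2S1 102 CPM and HepG2S3 167 and 160.0 CPM. HCC827P had 708 CPM and HCC827GR 212 CPM, and UWB1.289 had 230.0 CPM, U10 94.5 CPM and U100 116 CPM. HCC4006GR, derived from the other HCC4006 parental line, kept 778 CPM beside 992 CPM in HCC4006P2, a log2FC of -0.35 (counting interval -0.40 to -0.30). In IGROV-1/CDDP KRT19 was higher, at 373 CPM against 89.2 CPM, a log2FC of 2.05 (counting interval 1.97 to 2.14). In HepG2S3 KRT19 fell by 1.39 (SE 0.36, edgeR adjusted p = 0.0191), and without HepG2S3 replicate 2 the adjusted p was 0.0569. The fitted KRT19 change was -0.76 without HepG2 replicate 2 and -1.84 without HepG2 replicate 1. In HepG2S1 it fell by 2.12 (SE 0.48, edgeR adjusted p = 0.0164).

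KRT7, the type II keratin of ductal and glandular epithelium, had the widest range of changes on log2(CPM + 1) of the 10 members, and KRT80, a type II keratin of broad epithelial range, moved with it at a lower level. KRT7 was at 0.628 and 1.43 CPM in HepG2, from 23 and 50 counts, and at 2733 CPM in HepG2S1 and 2739 and 3086 CPM in HepG2S3. IGROV-1 showed the opposite, with 204 CPM in the parental line and 3 counts, 0.119 CPM, in IGROV-1/CDDP, a log2FC of -7.52 (counting interval -7.66 to -7.21). It stood at 2543 CPM in PancVB, 1055 CPM in PancB1Q and 876 CPM in PancB1V. Within lung the lines diverged: KRT7 went from 2248 and 1906 CPM in HCC4006P1 to 127 and 183 CPM in HCC4006ER and from 1215 CPM to 466 CPM in HCC827GR, whereas HCC4006GR had 2206 CPM against 1674 CPM in HCC4006P2. UWB1.289 had 1915 CPM, U10 3004 CPM and U100 2302 CPM. KRT7 was thus higher in 5 and lower in 5 of the 10 lines, each beyond the counting interval or the spread of libraries. The edgeR log2FC was 11.15 in HepG2S3 (SE 0.46, adjusted p = 6.0e-05), 11.02 in HepG2S1 (SE 0.46, adjusted p = 8.9e-05) and -3.69 in HCC4006ER (SE 0.21, adjusted p = 4.4e-05).

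KRT80 was at 15.04 and 12.25 CPM in HepG2, 330.1 CPM in HepG2S1 and 345 and 349 CPM in HepG2S3. It was at 136 CPM in PancVB, 103 CPM in PancB1Q and 69.4 CPM in PancB1V, and at 279.8 CPM in UWB1.289, 475 CPM in U10 and 304 CPM in U100. In the lung lines it went from 357 and 361 CPM to 162 and 195 CPM in HCC4006ER, from 157 CPM to 86.6 CPM in HCC827GR and from 174 CPM to 311 CPM in HCC4006GR. KRT80 went from 95.1 CPM in IGROV-1 to 7.44 CPM in IGROV-1/CDDP, and in each of the 10 lines its direction was that of KRT7. The edgeR log2FC was 4.35 in HepG2S3 (SE 0.17, adjusted p = 5.3e-05), 4.25 in HepG2S1 (SE 0.18, adjusted p = 9.5e-05) and -0.97 in HCC4006ER (SE 0.17, adjusted p = 0.00423), the last with adjusted p = 0.0685 when the missing stretch was kept in the fit. KRT7 and KRT80 correlated at r = 0.919 over the 17 lines (Spearman rho 0.828) and at 0.641 without HepG2 and IGROV-1/CDDP, so that a good part of the relation rests on those 2 lines. Over the 7 parental lines, which include HepG2, r was 0.949.

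**Figure D4:**
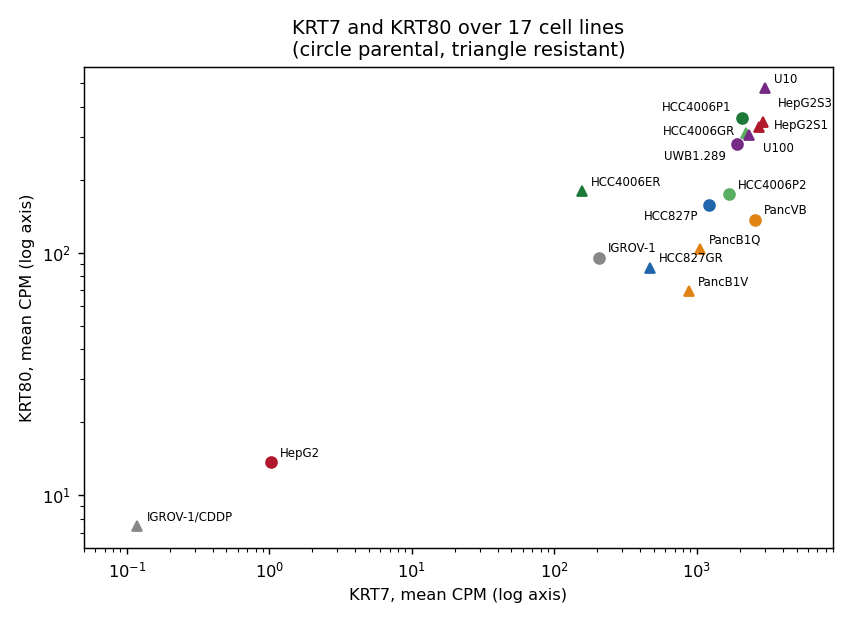
Mean CPM of KRT7 (x axis) against KRT80 (y axis), both on log axes, for 17 cell lines, circles for parental and triangles for resistant lines, coloured by parental line. HepG2 and IGROV-1/CDDP lie far below the other 15 lines, whose KRT7 is between 155 and 3004 CPM.

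The keratins of stressed and layered epithelium, KRT6A, KRT17, KRT5 and KRT15, were low in most lines and higher in a few. KRT6A, a type II keratin induced in wounded epidermis, had 0 counts in both HepG2 libraries, 61.6 CPM in HepG2S1 and 17.3 and 8.68 CPM in HepG2S3, at least 734-fold and at least 155-fold higher with a floor of 3 counts per HepG2 library. It was at 5.43 CPM in HCC4006GR, with 2 counts in HCC4006P2, and went from 3.23 CPM in HCC827P to 1 count in HCC827GR. KRT17, the type I keratin expressed with it in injured skin, was at 1.17 and 1.38 CPM in HepG2, 90.9 CPM in HepG2S1 and 108 and 66.7 CPM in HepG2S3. The edgeR log2FC of KRT17 was 5.78 in HepG2S3 (SE 0.33, adjusted p = 0.000127) and 5.80 in HepG2S1 (SE 0.34, adjusted p = 0.000200). In the pancreatic lines KRT17 went the other way, from 13.4 CPM in PancVB to 1.33 CPM in PancB1Q and 0.201 CPM in PancB1V. From 2 counts in UWB1.289 it was at 50.99 CPM in U10 and 3.81 CPM in U100. Reads of KRT16, a related gene that reached 35.1 CPM in HepG2S3, could contribute to KRT17 in that line, which was not tested. KRT5, the type II keratin of basal cells, stayed at or below 1.84 CPM in the 21 libraries, with 0 counts in HepG2 and 1.84 and 1.60 CPM in HepG2S3, at least 20.5-fold higher.

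KRT15, the type I keratin of basal cells, was highest in the parental lung lines. It was at 24.3 and 15.4 CPM in HCC4006P1, 33.1 CPM in HCC4006P2 and 47.0 CPM in HCC827P, and at 1.42 and 1.28 CPM in HCC4006ER, 7.55 CPM in HCC4006GR and 12.3 CPM in HCC827GR. The resistant lung line was thus the lower in 3 of 3 pairs, by log2FC of -3.15, -2.00 and -1.85, and edgeR gave -3.80 for HCC4006ER (SE 0.22, adjusted p = 4.7e-05). Outside lung, KRT15 was also lower in U10 (log2FC -1.30) and U100 (log2FC -1.47), with 3.87 CPM in UWB1.289. IGROV-1/CDDP was higher, with 5.85 CPM against 0.910 CPM, as was PancB1V, with 8.29 CPM against 5.34 CPM in PancVB. KRT15 was the member that did not pass the edgeR test in HepG2S3 (log2FC 0.40, adjusted p = 0.278) or HepG2S1 (log2FC -0.30, adjusted p = 0.577). KRT81, a type II hair keratin, was highest in the UWB1.289 family, at 36.8 CPM in UWB1.289, 89.1 CPM in U10 and 160.2 CPM in U100, with log2FC of 1.25 (counting interval 1.03 to 1.48) and 2.09 (1.90 to 2.29). It went from 16.4 CPM in PancVB to 4.69 CPM in PancB1Q and 3.54 CPM in PancB1V, and rose in HepG2S3 from 0.382 and 0.545 CPM to 3.81 and 3.66 CPM (edgeR log2FC 2.69, SE 0.31, adjusted p = 0.00122). In HepG2S1 its edgeR log2FC was 1.62 (SE 0.43, adjusted p = 0.0271), with adjusted p = 0.0742 by DESeq2 and 0.0766 and 0.0772 without either HepG2S3 library.

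Because chains pair across types, the levels were also summed by type after division by the length of the MANE Select transcript, the scale on which genes can be compared. HepG2 held 700 CPM per kilobase of type II and 821 of type I transcript, a ratio of 0.852, with KRT8 making up 99.4% of type II. In HepG2S1 and HepG2S3 the ratio was 5.97 and 6.62, and KRT7 made up 72.6% and 76.2% of type II, while type I stood at 388 and 355 CPM per kilobase. IGROV-1/CDDP lay at the other end, with 18.6 CPM per kilobase of type II, 341 of type I and a ratio of 0.0545, against 1.288 in IGROV-1. In that line KRT19 made up 78.8% of type I and KRT8 88.8% of the little type II. U10 and U100 had ratios of 3.66 and 2.49 beside 1.80 in UWB1.289, and the other 11 lines lay between 1.23 and 2.16. HCC4006ER kept a ratio of 1.80 beside 1.25 in HCC4006P1 although both types were lower, type II from 2987 to 756 and type I from 2387 to 419 CPM per kilobase, and KRT18 made up 99.5% of its type I. These ratios have no replicate test, and keratins outside the 10 are not in them.

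**Figure D5:**
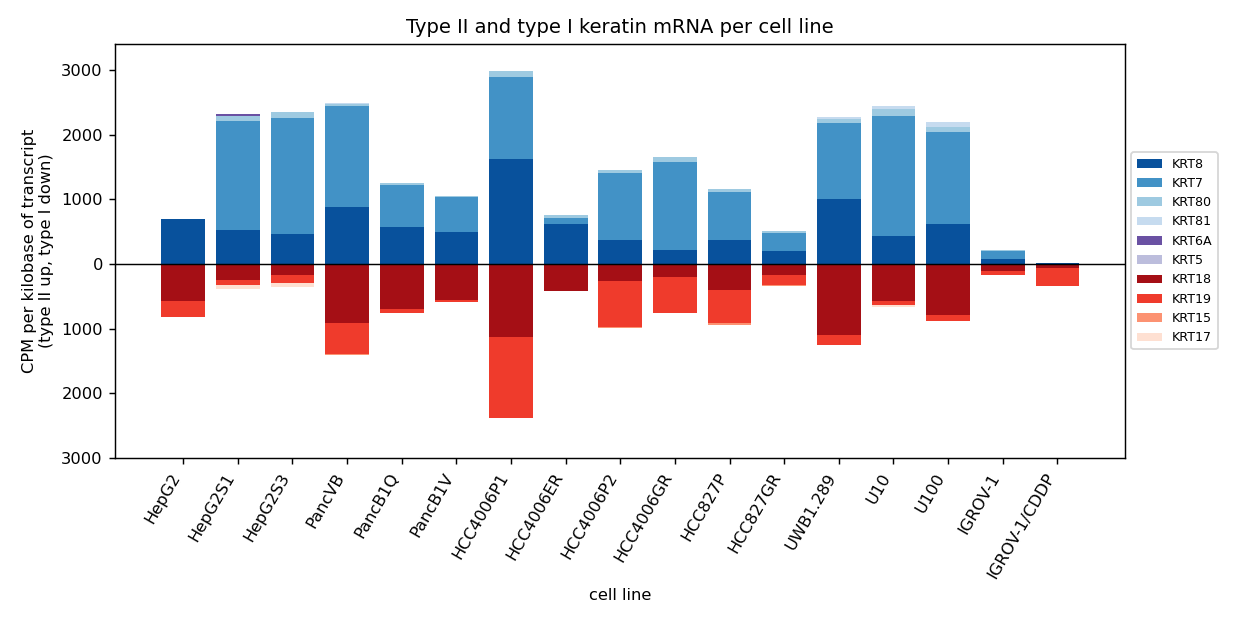
Stacked bars of CPM per kilobase of transcript for the 6 type II keratins (upwards from 0, blue and violet) and the 4 type I keratins (downwards from 0, red) in 17 cell lines, means over libraries. HepG2S1 and HepG2S3 show long upward bars of KRT7 over short downward bars (ratios 5.97 and 6.62), and IGROV-1/CDDP shows almost no upward bar (ratio 0.0545).

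HepG2S3 and HCC4006ER, the replicated pairs, were compared in a single edgeR fit, a test chosen after the data had been seen, and it called 55.9% of 14478 genes. Of the 10 members 6 differed in their change, namely KRT7, KRT80, KRT19, KRT15, KRT17 and KRT81. KRT17 and KRT81 had 5 counts or fewer in each of HCC4006P1 and HCC4006ER, and without HCC4006P1 replicate 1 the edgeR adjusted p was 1.0 for KRT17 and 0.0819 for KRT81. The change of KRT8 differed by 0.48 (SE 0.26, adjusted p = 0.157) and that of KRT18 by -0.57 (SE 0.26, adjusted p = 0.0907), HepG2S3 minus HCC4006ER, which does not show them to be alike.

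Among the 45 other keratin genes, 5 reached 10 CPM in some line, 5 stayed between 1 and 10 CPM and 35 stayed under 1 CPM in every line. KRT23, a type I keratin, was at 158 CPM in HepG2, 0.102 CPM in HepG2S1 and 0.0979 CPM in HepG2S3. KRT10, a type I keratin of maturing epidermis, was the evenly spread one, from 13.2 to 76.0 CPM. KRT34, a hair keratin, was at 0.0136 CPM in HepG2, 8.02 CPM in HepG2S1 and 56.4 CPM in HepG2S3. Vimentin (VIM), the filament protein of mesenchymal cells, was at 0.0976 CPM in HepG2 and at 1215 and 1115 CPM in HepG2S1 and HepG2S3, at 568 CPM in HCC4006P1 and 1475 CPM in HCC4006ER, with 160.3 CPM in HCC4006P2 and 604 CPM in HCC4006GR and 65.6 CPM in HCC827P and 675 CPM in HCC827GR. In the other 5 resistant lines, in which KRT8 and KRT18 were lower as well, the VIM change on log2(CPM + 1) was -0.34 in U100, -0.25 in U10, -0.17 in PancB1Q, 0.07 in PancB1V and 0.34 in IGROV-1/CDDP. Their parental lines already held VIM, at 263 CPM in UWB1.289, 2332 CPM in PancVB and 384 CPM in IGROV-1.

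Keratin filaments are anchored at cell junctions and to other filaments, and 14 genes of this machinery were followed. By edgeR, 0 of the 12 tested rose and 8 fell in HCC4006ER, 6 of 13 rose and 3 fell in HepG2S3, and 7 of 13 rose and 2 fell in HepG2S1, beside the shares of all genes given above for these tests (24.1% up and 24.9% down, 31.4% and 32.1%, and 22.3% and 25.0%). DSP, which encodes desmoplakin, the protein that binds keratin filaments to desmosomes, fell in HCC4006ER (log2FC -1.76, SE 0.13, edgeR adjusted p = 0.000122) and in HepG2S3 (log2FC -3.11, SE 0.14, adjusted p = 7.3e-05). In the pancreatic lines DSP was at 126 CPM in PancVB and at 756 and 658 CPM in PancB1Q and PancB1V, higher where KRT19 and KRT7 were lower. JUP, which encodes plakoglobin, fell in HCC4006ER (log2FC -2.99, SE 0.13, edgeR adjusted p = 1.6e-05) and rose in HepG2S3 (log2FC 0.93, SE 0.12, adjusted p = 0.00189) and HepG2S1 (log2FC 1.75, SE 0.15, adjusted p = 0.000635). PLEC, which encodes the linker plectin, rose in HepG2S1 (log2FC 2.34, SE 0.19, edgeR adjusted p = 0.000509) and HepG2S3 (log2FC 1.32, SE 0.16, adjusted p = 0.00153), and was not tested in HCC4006ER because it lies in the missing stretch. Of the 13 genes of the list with a mean of at least 1 CPM in the pair, 0 moved past 1 in U10 and 0 in U100. Of all genes, 5.01% were lower and 6.36% higher in U10, and 1.76% and 6.37% in U100. In HCC827GR 5 of 13 were lower and 0 higher, against 7.79% and 10.5%. In IGROV-1/CDDP 3 of 12 were lower and 0 higher, against 7.19% and 5.50%. In HCC4006GR 1 of 14 was lower and 3 higher, against 7.48% and 7.67%. PancB1Q had 1 of 13 lower and 3 higher, against 9.41% and 6.14%. PancB1V had 2 lower and 2 higher, against 7.24% and 8.72%.

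Among protein coding genes that reached 10 CPM, the 2 with the highest Pearson correlation to each member over 17 lines were taken as a description of its pattern. KRT18 and KRT8 were in each other's closest 2, as were KRT7 and KRT80, and HTATIP2 was close to both of the latter (r = 0.933 and 0.874). KRT8 was closest to GMEB2 (r = 0.889) and KRT18 had USP13 next (0.876). KRT19 was closest to ESRP2 (0.826), a splicing regulator of epithelial cells, and ERBB3 (0.779), a growth factor receptor. KRT6A was closest to FAP (0.916) and ALPP (0.896), KRT17 to DNAJC1 (0.868) and FBXO4 (0.830), KRT81 to TMIE (0.941) and FAM53A (0.916) and KRT15 to TCN1 (0.851) and ANKRD22 (0.849). With 17 lines, 1 or 2 lines can set such values, as for KRT6A, which passed 10 CPM in HepG2S1 and HepG2S3 alone.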

How the data were processed

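Poly(A) RNA of 21 libraries was sequenced by the study. The authors aligned reads to hg19 and deposited whole-number counts per Ensembl gene for each library. For all 21 libraries the labels give a stranded mRNA kit with TopHat, Bowtie, SAMtools and HTSeq, without versions. The study's methods also describe a 3′ end kit mapped with STAR, which no label names. The strand setting of the counting is not given in the sources used here. The column of the IGROV-1/CDDP table is headed IGROV-1, and the sample's own label was followed.

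Groups came from the labels. Symbols were matched for 45100 of 53515 Ensembl genes with a GRCh37 GENCODE annotation. Rows without a gene name (no feature, 6.61 to 19.0% of reads per library, and ambiguous, 3.29 to 4.07%) were left out of totals. CPM was computed from the deposited counts, replicate libraries were averaged in CPM, and log2 fold changes used a pseudocount of 1 CPM. A counting interval combines the 95% Wilson bounds of both counts. For a gene at 0 in the parental line, a fold is a lower bound against 3 counts per parental library, averaged in CPM. HCC4006P1 replicate 1 holds 0 counts from position 30620149 of chromosome 7 onwards in the table's order of chromosomes (8696 genes, 1679 of them with at least 50 counts in replicate 2). These genes and the 8415 without a position (2.37% of counts in replicate 2) were left out of the fits with HCC4006 lines and of the fit over 7 parental lines.

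Replicated pairs were tested with the quasi-likelihood test of edgeR 4.0.16 (R 4.3.3, TMM, filterByExpr), with Benjamini-Hochberg adjustment over all genes tested and a threshold of 0.05. HepG2S1 entered 1 fit with HepG2 and HepG2S3. Over parental lines, counts were summed into 14 profiles. Pairs with 1 library on each side have no replicate check and no p. The tests were tried on simulated counts with known fold changes. Alternatives were DESeq2 1.42.0, other size factors, no filter, the replicate letter as a block, all 21 libraries in 1 fit and each library left out. The comparison of HepG2S3 with HCC4006ER and the means without HepG2 or with the HCC4006 stocks averaged were added after seeing the data. All 10 members are named, with the 3 other keratins of highest CPM, DSP, PLEC, JUP and VIM, and the 2 genes most like each member. The marker lists were liver, lung, ovary, pancreatic duct, blood, endothelium and fibroblast. PECAM1 was not analysed here. The sequences of the keratin genes' upstream regions are not reported here. The members and lists were chosen with earlier results of these data known. Values were processed with pandas 2.3.3 and drawn with matplotlib 3.10.9.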

Additional observations from a re-analysis of the deposited data

Results flagged for a closer look

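The changes of 6 of the 10 keratins differed between the sorafenib-resistant HepG2S3 and the erlotinib-resistant HCC4006ER, each against its own parental line, in a test of the difference itself that was chosen after the data had been seen. The difference, HepG2S3 minus HCC4006ER on the log2 scale of edgeR, was 14.87 for KRT7 (SE 0.52, adjusted p = 1.2e-07) and 5.35 for KRT80 (SE 0.27, adjusted p = 7.0e-07), which rose in HepG2S3 and fell in HCC4006ER. It was 8.24 for KRT19 (SE 0.53, adjusted p = 3.4e-06), which fell in both and further in HCC4006ER. It was 4.22 for KRT15 (SE 0.37, adjusted p = 2.2e-05), which fell in HCC4006ER and did not pass the test in HepG2S3. It was 9.27 for KRT17 (SE 2.58, adjusted p = 0.0166) and 3.94 for KRT81 (SE 1.12, adjusted p = 0.0152), which rose in HepG2S3. Both rest on 5 counts or fewer in each HCC4006 line, and without HCC4006P1 replicate 1 the adjusted p was 1.0 and 0.0819. These differences stand beside the 55.9% of all genes tested that differed between the pairs, and drug, tissue and the absent liver and lung markers of these lines cannot be told apart.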

How the results depend on the processing

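No keratin change that passed its test or exceeded its error turned sign under the alternatives run. In HCC4006ER, 6266 genes passed the test, 3417 when the stretch without counts was kept, and 4051 to 8370 with 1 library left out, the lowest without HCC4006ER replicate 1, with 6 to 6 keratins called. In HepG2S1, 7 to 9 keratins and 6335 to 11957 genes were called with 1 library left out (8667 with all), in HepG2S3 8 to 9 and 7341 to 13242 (10744 with all), and for the difference of the pairs 4 to 7 (6 with all) and 6507 to 8518 (8094 with all). Changes past 1 numbered 49 of the 100 member and line combinations, 48 to 49 with a library left out and 59 with a pseudocount of 0.1 CPM. Over 7 parental lines, DESeq2 called 2 keratins and 92 genes where edgeR called 0, and edgeR called 0 of 15222 genes without HepG2 (1036 at an unadjusted p under 0.05). Same-lettered replicate libraries deviated together at r = 0.0339 for HepG2 with HepG2S3 and 0.336 for HCC4006P1 with HCC4006ER, with 2 letters each, and share only a letter. With the replicate block, 9 keratins and 10561 genes were called in HepG2S3, 6 and 7787 in HCC4006ER, and 7 and 8199 for the difference, where KRT18 passed with adjusted p = 0.0493 by edgeR. With the replicate block and the stretch kept, 0 keratins and 0 genes were called in HCC4006ER, with 5253 genes at an unadjusted p under 0.05 in edgeR. For the difference, edgeR also called KRT18 without HepG2 replicate 1 (adjusted p = 0.032) and KRT8 without HepG2 replicate 2 (adjusted p = 0.0495). The cause of these moves was not tested. KRT5 rests on 108 counts or fewer in each line, KRT6A, KRT17 and KRT81 on 5 or fewer in HCC4006P1 and HCC4006ER, and lines with 1 library have no replicate spread.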
